A study of Mus musculus with 6 samples.

Results

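Pdlim5 codes for a PDZ and LIM domain protein of the actin cytoskeleton, and 6 of the 3869 circular RNAs (circRNAs) in a table of mouse brown preadipocyte differentiation came from its locus. They were taken by position, as every circRNA lying wholly within a 170 kb interval of the minus strand of chromosome 3 (mm9) that covers Pdlim5, and extended from position 141922094 to 142015849. The locus was chosen by its CPM at day 8 against days 0 and 4, so those values are given as a description. The cells were stromal vascular cells of C57BL/6 mice aged 6 weeks, from a depot that the labels call both inguinal and brown (BAT), grown to near confluence in serum-rich medium. Day 0 cells were sampled before induction, in the stage that the labels call proliferation. Day 4 cells had received insulin, dexamethasone and isobutylmethylxanthine for 4 days. Day 8 cells had then received insulin and T3, a thyroid hormone, for another 4 days. Each day had 2 libraries, made after removal of ribosomal and linear RNA. The sex and number of animals are not given in the sources used here, nor whether the 2 libraries of a day came from separate cultures, so any p-value reflects the variation between these libraries, part or all of which may be technical. The table lists circRNAs only, so markers of brown fat cells could not be checked.

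A circRNA forms when the splice donor at the end of an exon is joined backwards to the acceptor at the start of the same or an earlier exon. The closed loop has no free ends and is usually long-lived, and its read evidence is the back-splice junction, which no linear transcript of the gene holds. Pdlim5, also called Enigma homologue (ENH), carries a PDZ domain near its start, which binds alpha-actinin, and LIM domains near its end, which bind protein kinase C. Splicing also makes short Pdlim5 proteins that lack the LIM domains, known from heart and skeletal muscle. Preadipocytes lose actin stress fibres as they round up and fill with lipid.

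Values are CPM as deposited, that is, counts scaled to a total of 1000000 over all listed circRNAs of a library. Every value was a whole multiple of a library-specific step, and the smallest non-zero value was 2 steps. With 1 step taken as 1 read, the libraries held 40384 to 45733 reads on listed circRNAs and 77 to 121 on the 6 Pdlim5 circRNAs. A listed 0 may hide 1 read.

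The 6 circRNAs used 3 donors and 5 acceptors. The table was made on mm9 and the annotation at hand (GENCODE M21) on GRCm38, so exons were identified from the distances between ends, and no coordinate was carried over. All 8 ends fell on exon boundaries of Pdlim5 in 1 arrangement, the next best arrangement placed 2, and none of 1456 other minus-strand genes of chromosome 3 placed more than 2. Exons are numbered here as in transcript Pdlim5-201, which has 13. The most abundant circRNA (chr3:141922094-141940965) ran from exon 8 to exon 9. A second (chr3:141966907-141977412) ran from exon 4 to exon 7. A pair shared the acceptor of exon 6 and ended at exon 8 (chr3:141940781-141967433) or exon 9 (chr3:141922094-141967433). The longest (chr3:141940781-142015849) ran from exon 3 to exon 8 and is mmu_circ_0010501 of circBase, a public catalogue. The last (chr3:141922094-141940962) was the exon 8 to 9 circle with an acceptor 3 nt further into exon 8. Of the 6, 5 had no circBase identifier, against 36.9% of the whole table.

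**Figure D1:**
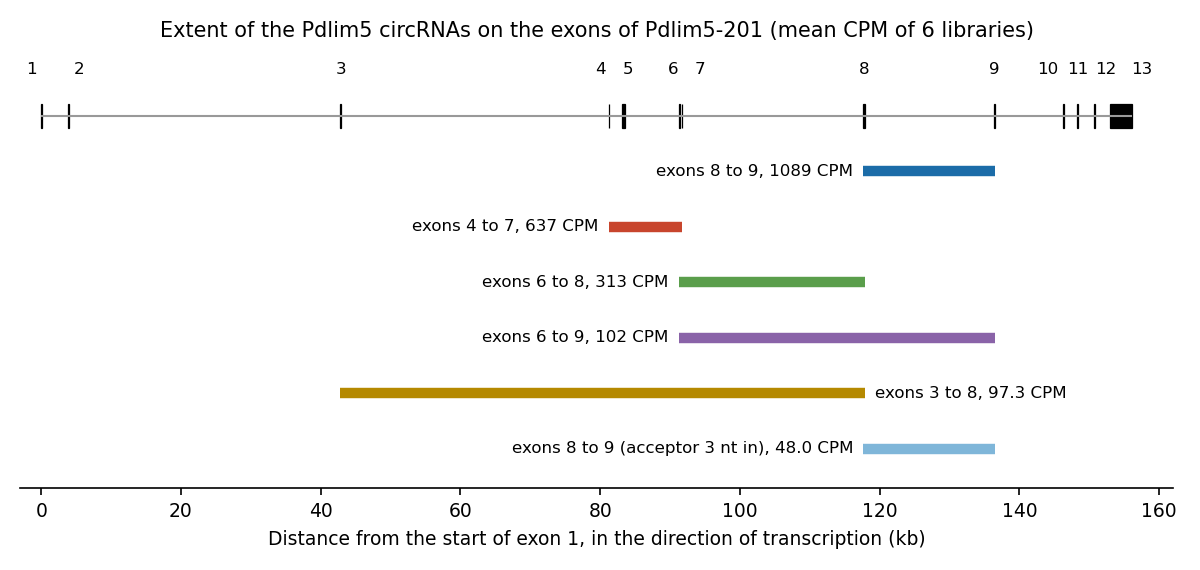
Extent of each Pdlim5 circRNA (coloured bars, with mean CPM over 6 libraries) on the 13 exons of transcript Pdlim5-201 (black boxes), with distance from the start of exon 1 in kb on the horizontal axis. The circRNA of exons 4 to 7 shares no exon with that of exons 8 to 9, while the other circRNAs begin or end at exon 8 or 9.

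The sequence across each back-splice is what sets these molecules apart from one another and from the linear mRNA. Each line gives the last 25 bases of the donor exon in lower case and the first 25 bases of the acceptor exon in capitals, 5′ to 3′, as the annotated exons of the GENCODE M21 transcripts (GRCm38, chromosome 3, minus strand) predict them. All exons involved are wholly coding in Pdlim5-201.
exons 8 to 9: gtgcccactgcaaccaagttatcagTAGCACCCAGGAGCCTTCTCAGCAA
exons 8 to 9, acceptor 3 nt in: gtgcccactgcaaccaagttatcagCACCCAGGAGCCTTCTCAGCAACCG
exons 6 to 9: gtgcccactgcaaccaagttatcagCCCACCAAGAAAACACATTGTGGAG
exons 6 to 8: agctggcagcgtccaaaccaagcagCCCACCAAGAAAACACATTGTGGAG
exons 3 to 8: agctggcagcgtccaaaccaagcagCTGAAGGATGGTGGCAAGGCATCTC
exons 4 to 7: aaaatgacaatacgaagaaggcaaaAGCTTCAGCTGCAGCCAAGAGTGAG
The first 3 lines share the donor of exon 9, the next pair that of exon 8, and the last stands alone at both ends. The acceptor 3 nt in leaves out the letters TAG at the start of exon 8 and is itself annotated, in transcript Pdlim5-213.

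The annotated transcripts give the exons that each loop could hold. Exons 8 and 9 add up to 348 nt with no other annotated exon between them. Exons 4 to 7 came to between 303 and 672 nt over the 10 of 13 transcripts that hold both ends, mainly because exon 5 is 419 nt long in Pdlim5-201 and shorter or replaced in others. Of the 12 transcripts that use the donor of exon 7, 7 also hold exon 8 and 5 leave it out. Exon 7 is the last exon in 0 of the 12. The introns that flank the back-splices were the 6 longest of the 12 in Pdlim5-201, from 7653 bp before exon 6 to 38827 bp before exon 3. The genomic span of the 6 circRNAs was 10506 to 75069 bp, with a median of 22763 bp, against a median of 7871 bp over all listed circRNAs. Junction reads do not show which inner exons a loop kept.

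The circRNA of exons 8 to 9 had the highest mean CPM of the locus over the 6 libraries, though not at day 4, when exons 4 to 7 averaged more, and in day 0 replicate 1 the 2 were nearly level (53 and 52 reads). Its CPM were 1229.8 and 1332 on day 0, 897 and 693 on day 4, and 1176 and 1208 on day 8. In CPM as deposited, both day 4 libraries lay below all others, and the day 8 libraries lay just under those of day 0. The mean was 795 ± 144 CPM on day 4, against 1281 ± 72.1 CPM on day 0 (SD, n = 2 each). The log2 fold change at day 4 against day 0, on the log2(CPM + 43.7) scale of the fit to all circRNAs, was -0.61 (SE 0.22), which limma did not call (adjusted p = 0.186 over 3869 circRNAs). At day 8 it averaged 1192 ± 22.8 CPM (SD, n = 2). After the scaling of the fit, its log2 fold change at day 8 against day 0 was 0.0014 (SE 0.22). By mean CPM over the 6 libraries this circRNA ranked 145 in the table.

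The circRNA of exons 4 to 7 was of the same order as that of exons 8 to 9 at days 0 and 4 and stood at 0 at day 8. Its CPM were 1207 and 629.6 on day 0 (52 and 26 reads), 897 and 1089.5 on day 4 (41 and 44 reads), and 0 in both day 8 libraries. The libraries of days 0 and 4 overlapped, and both day 8 libraries lay below all 4 of them. At day 4 it averaged 993 ± 136 CPM, against 918 ± 408 CPM at day 0 (SD, n = 2 each). The log2 fold change between these days was 0.23 (SE 0.40, limma adjusted p = 0.81) and had the opposite sign without day 0 replicate 2 (-0.19). In a bulk sample, fewer cells that carry an RNA and less of it per cell cannot be told apart. The 2 day 8 libraries held 40819 and 42215 reads on listed circRNAs. In them the other 5 Pdlim5 circRNAs together held 77 and 78 reads. Why exons 4 to 7 stood at 0 was not tested.

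The count of circRNAs with such a pattern is given as a description only, since the locus was chosen by it. There were 517 circRNAs with 10 or more reads in all 4 libraries of days 0 and 4, of which 1 (0.193%) was listed at 0 in both day 8 libraries, the circRNA of exons 4 to 7. In the same way, 0 of 508 with 10 or more reads in each library of days 0 and 8 were listed at 0 in both day 4 libraries. For 7 of 519 (1.35%) with 10 or more reads in each library of days 4 and 8, both day 0 libraries were at 0.

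**Figure D2:**
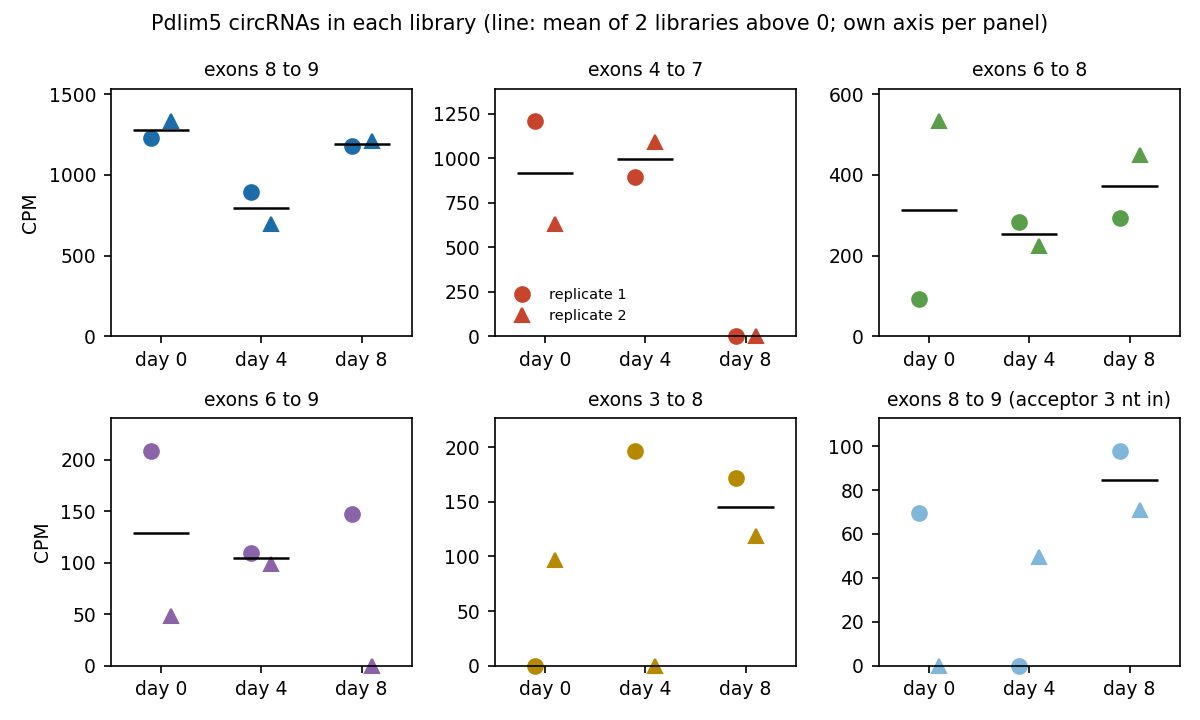
CPM of each Pdlim5 circRNA (1 panel each, with its own vertical axis from 0) in the 2 libraries of days 0, 4 and 8 (circles, replicate 1; triangles, replicate 2), with the mean of a day as a line where both libraries were above 0. Exons 4 to 7 are at 0 in both day 8 libraries after 629.6 to 1207 CPM at days 0 and 4, while exons 8 to 9 stay between 693 and 1332 CPM.

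The 2 circRNAs that start at exon 6 overlap the circRNA of exons 4 to 7 in genomic extent. The circRNA of exons 3 to 8, given further on, spans all of exons 4 to 7. At day 8 exons 6 to 8 were above 0 in both libraries, and exons 6 to 9 in replicate 1 only. For exons 6 to 8 the CPM were 92.8 and 533 on day 0, 284 and 223 on day 4, and 294 and 450.1 on day 8. The day 0 libraries stood far apart and enclosed all the others. The mean was 313 ± 311 CPM on day 0, 254 ± 43.4 CPM on day 4 and 372 ± 110.4 CPM on day 8 (SD, n = 2 each). In day 0 replicate 1, where exons 6 to 8 were lowest, exons 4 to 7 were highest. For exons 6 to 9 they were 209 and 48.4 on day 0, 109 and 99.0 on day 4, and 147 and 0 on day 8, which is 9 reads or fewer in any library.

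The remaining pair was near the limit of detection. The catalogued circRNA of exons 3 to 8 had CPM of 0 and 96.9 on day 0, 197 and 0 on day 4, and 171 and 118 on day 8. It was above 0 in both libraries at day 8 alone and held at most 9 reads. Exons 8 to 9 with the acceptor 3 nt in had CPM of 69.6 and 0 on day 0, 0 and 49.5 on day 4, and 98.0 and 71.1 on day 8. It held at most 4 reads in any library, against 28 to 55 reads for the main acceptor. This pair too was above 0 in both libraries of day 8 only, and listing in the table itself required that of at least 1 day.

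Summed over the locus, Pdlim5 circRNAs made 2808 and 2639 CPM on day 0, 2383 and 2154 CPM on day 4, and 1886 and 1848 CPM on day 8. In CPM the libraries of the 3 days did not overlap, and each later day lay below the one before. How many other loci of the table showed such an order was not counted. In reads, the sums were 121 and 109 on day 0, 109 and 87 on day 4, and 77 and 78 on day 8. Day 0 replicate 2 and day 4 replicate 1 thus held the same number of reads. With exons 4 to 7 left out, the sum was 1805 ± 289 CPM on day 0, 1276 ± 298 CPM on day 4 and 1867 ± 27.4 CPM on day 8 (SD, n = 2 each), and both day 8 libraries lay between the 2 day 0 libraries. By mean sum over the 6 libraries the locus ranked 67 of 2511 groups of overlapping same-strand circRNAs, and 42 groups held at least 6 circRNAs. An exact permutation test of 2 against 2 libraries cannot go below p = 0.333, and the sums were not tested.

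By mean share within the locus, exons 8 to 9 led at day 0, exons 4 to 7 at day 4 and exons 8 to 9 again at day 8. Exons 8 to 9 made up 47.1% ± 4.71 of the sum on day 0, 34.9% ± 3.84 on day 4 and 63.9% ± 2.15 on day 8 (SD, n = 2 each). Exons 4 to 7 made up 33.4% ± 13.5 at day 0 and 44.1% ± 9.16 at day 4, the largest mean share of that day. In day 4 replicate 1 both circRNAs had 41 reads, so the order at day 4 rested on replicate 2. Among the other 5 circRNAs alone, exons 8 to 9 held 71.5% ± 7.46 on day 0, 62.7% ± 3.41 on day 4 and 63.9% ± 2.15 on day 8.

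**Figure D3:**
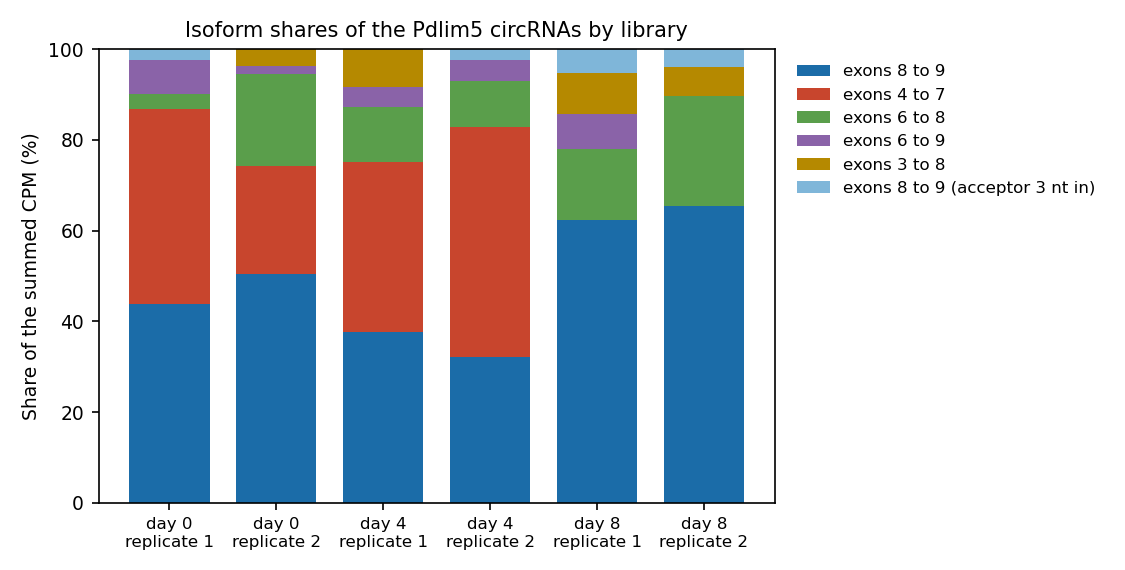
Share of the summed CPM (vertical axis, %) that each Pdlim5 circRNA held in each of the 6 libraries. Exons 4 to 7 averaged 33.4% at day 0 and 44.1% at day 4 and are missing from both day 8 bars, where exons 8 to 9 averaged 63.9%.

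Counted by splice site, the donor of exon 9 carried most back-splices at day 8 and the donor of exon 7 had none. The exon 9 donor had 1444 ± 90.5 CPM on day 0, 924 ± 116 CPM on day 4 and 1350.04 ± 100.2 CPM on day 8 (SD, n = 2 each). The exon 8 donor had 361 ± 379.5 CPM on day 0, 352 ± 183 CPM on day 4 and 517 ± 72.9 CPM on day 8. The exon 6 acceptor had 441 ± 198 CPM on day 0, 358 ± 50.7 CPM on day 4 and 446 ± 6.44 CPM on day 8. The day 0 spread of exons 6 to 8 and exons 6 to 9 ran in opposite directions, so their summed acceptor varied less than exons 6 to 8 alone.

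The choice of the locus did not name the comparison of day 4 with day 0, although the CPM of both days entered it. In this comparison limma called 0 of the 6 Pdlim5 circRNAs, and 1 (exons 8 to 9) had an unadjusted p under 0.05. Among all circRNAs 7.96% were called. In CPM as deposited, the libraries of these days did not overlap for 1 of the 6, exons 8 to 9 again. The share among all circRNAs was 46.2%. For day 8 against day 0, 1 of the 6 was called, exons 4 to 7, which was lower, with 4.86% of all circRNAs called lower. For day 8 against day 4 this circRNA was again called lower, against 3.57% of all. In CPM as deposited, the libraries did not overlap for 4 of the 6 between day 8 and day 0, against 51.2% of all circRNAs. They did not overlap for 4 of the 6 between day 8 and day 4, against 46.5% of all. The 4 for day 0 include exons 8 to 9, whose scaled log2 fold change was 0.0014. Nothing is read from these calls, since the locus was chosen with them known. With 1 library left out, a day is left with a lone sample, which the fit assumes to vary like the other days. On the same circRNAs as in the main fit, exons 4 to 7 stayed called lower at day 8 whichever library was left out. When the filter (above 0 in 2 or more libraries) was re-applied to the 5 libraries left, the day 8 against day 0 call was lost without replicate 2 of day 0 and without either library of day 8. The day 8 against day 4 call was then lost without either library of day 4 or of day 8. In each run that lost a call, limma called no circRNA of the whole table for that comparison. The other 5 circRNAs were called in no comparison.

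**Figure D4:**
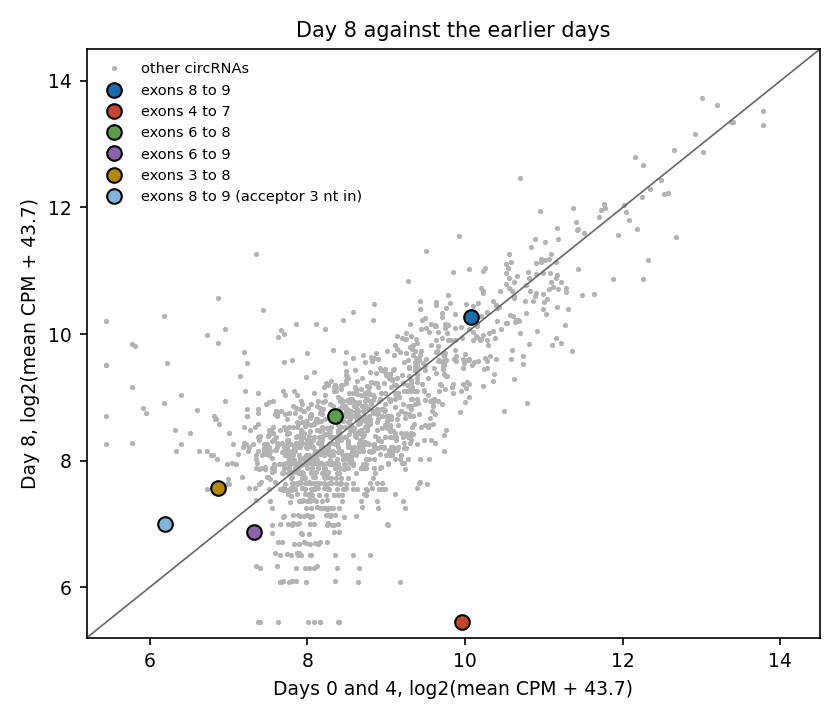
Mean CPM at day 8 (vertical axis) against mean CPM over days 0 and 4 (horizontal axis), both as log2(CPM + 43.7), for the circRNAs that reached 10 reads in 2 or more libraries (grey) and the 6 Pdlim5 circRNAs (coloured), with the line of equal values. Exons 4 to 7 lie on the floor of the plot, at 0 CPM at day 8, while exons 8 to 9 and exons 6 to 8 lie close to the line.

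Outside the locus, the circRNAs whose levels ran most like those of exons 4 to 7 were still well above 0 at day 8. Likeness was Pearson's r of log2(CPM + 43.7) over the 6 libraries, among the 1365 other circRNAs that reached 10 reads in 2 or more libraries. It was highest for mmu_circ_0000362 (chr12:25563056-25567659, plus strand, r = 0.981), which had 196 and 237 CPM at day 8 and 436 to 649.7 CPM before. Next were mmu_circ_0001284 (chr4:136326871-136330559, minus strand, r = 0.973) and mmu_circ_0000943 (chr19:28605363-28606476, minus strand, r = 0.97). The last had 1886 and 1777 CPM at day 8 and 4220.1 to 6289.6 CPM before. The r values rest on the step between day 8 and the earlier days, in 6 libraries that also share their scaling. The nearest other listed circRNA of chromosome 3 lay 455 kb away on the plus strand (chr3:141464243-141466917) and had 69.6 and 145 CPM at day 0 and 0 in the other 4 libraries.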

How the data were processed

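CircRNA levels were taken from 1 table of 6 libraries, deposited by the authors as CPM values, each column summing to 1000000 over the listed circRNAs, per the file headers and the values. FastQC 0.11.9, HISAT2 2.2.0 and build mm9 are named in the submitters' processing notes. No source used here names the circRNA caller. Columns were matched to samples by the day and replicate in their names. The starts count from 0 and were raised by 1 for printing. No circRNA was listed that lacked a day with both libraries above 0, which inflates differences between days at low counts.

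One fit covered all 3869 circRNAs, with limma 3.58.1 under R 4.3.3 (day as factor, mean-variance trend) on log2(CPM / factor + 43.7). The factor is a trimmed mean of M values (log2 factors -0.05 to 0.08), and 43.7 CPM is the smallest non-zero value. A filter on 2 or more libraries above 0 took out 0 circRNAs. Benjamini-Hochberg adjusted p under 0.05 counted as called. The fit was tested on simulated data. CPM in the text are as deposited. The 3 of the 6 that reached 10 reads in 2 or more libraries have their fold changes followed through the alternatives. The other genes of the family were not used, since no annotation of mm9 was at hand. The members and lists were chosen with earlier results of these data known.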

Additional observations from a re-analysis of the deposited data

How the results depend on the processing

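The limits are the small numbers of reads and of libraries: no fold is given against day 8 for exons 4 to 7, which is listed at 0 there. The count of 0 Pdlim5 calls for day 4 against day 0 (limma, 0 or 1 at an unadjusted p under 0.05) held under every alternative run. Over the whole table limma called 308 circRNAs (day 4 against day 0), 479 (day 8 against day 0) and 374 (day 8 against day 4). Keeping only the 1368 that reached 10 reads in 2 or more libraries, it called 48, 90 and 14. The libraries of days 0 and 4 alone gave 37 calls. Re-applying the filter to the libraries left, an alternative chosen after seeing the data, gave 507, 741 and 607 calls in fits of the days compared. Leaving out 1 library gave 222 to 283, 357 to 462 and 311 to 366 calls on the same circRNAs. With the filter re-applied the ranges were 0 to 0, 0 to 509 (67 without day 0 replicate 1) and 0 to 375, with 577 to 851, 591 to 1049 and 451 to 879 at an unadjusted p under 0.05 by limma. The Pdlim5 calls at day 8, against day 0 or day 4, then ranged from 0 to 1. The cause was not tested.

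No pairing by replicate number was seen. Deviations of same-numbered libraries from their day means correlated at -0.024, -0.019 and -0.016 between days over 1368 circRNAs. At these low read numbers such correlations cannot exclude a weak pairing. With a replicate block 303, 454 and 351 circRNAs were called, 0, 1 and 1 of them of Pdlim5. A count model was not run, since no value of 1 read is listed.

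Signs turned only in fold changes that were not called. For day 8 against day 0, exons 8 to 9 (0.0014 on the log2 scale) gave -0.099 without scaling, -0.015 with median-of-ratios factors, -0.062 without day 0 replicate 1, which was the lowest value with a library left out, and 0.083 was the highest. It gave -0.022 when day 8 replicate 2 was left out. Exons 6 to 8 (0.63) gave -0.41 without day 0 replicate 1 and up to 1.68. For day 4 against day 0, exons 6 to 8 (0.12) gave -0.92 without day 0 replicate 1, -0.065 without day 4 replicate 1 and up to 1.17, and exons 4 to 7 gave -0.19 without day 0 replicate 2 and up to 0.66.

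Restricted to the 3 circRNAs that reached 10 reads in 2 or more libraries, the summed CPM were 2512 on day 0, 2042 on day 4 and 1564 on day 8, and 3, 3 and 2 circRNAs were above 0. The share of exons 8 to 9 was then 51.0% on day 0, 38.9% on day 4 and 76.4% on day 8. Divided by the scaling factors, the sums over all 6 circRNAs were 2621 CPM on day 0, 2282 CPM on day 4 and 1932 CPM on day 8.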
